A study of Mus musculus with 9 samples.

Results

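The 40 genes described here encode ionotropic and metabotropic glutamate receptor subunits, the postsynaptic scaffold proteins of the MAGUK, SAPAP, Shank and Homer families, and the CaMKII kinase subunits. They were taken by symbol from the 47729 gene identifiers of the count files, and each of the 40 symbols matched 1 identifier. The libraries came from dissected midbrain of mice at 180 days of age, and 3 Dot1l genotypes were compared with 3 libraries each, each library being a pool of 3 mice. All 3 groups are labelled C57/Bl6. The controls, with both Dot1l alleles intact (Dot1l-+/+, written Dot1l(+/+) here), carried Pitx3-Cre/+ and the reporter Rosa-lox-stop-lox-Yfp, and the other groups had the same Cre and reporter alleles together with 1 floxed Dot1l allele, Dot1l(fl/+), or 2 floxed Dot1l alleles, Dot1l(fl/fl). Dot1l is the methyltransferase of lysine 79 of histone H3, and recombination of its floxed alleles was driven by Cre from the Pitx3 locus, which in the midbrain is active in dopamine neurons. The dissection also holds many cells without Cre, so each value is a mixture over cell types, and fewer cells of a type and less RNA per cell cannot be told apart.

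Excitatory synapses work mainly with glutamate. AMPA receptors carry the fast current, NMDA receptors open only when glutamate binds while the membrane is depolarised, kainate receptors modulate release and excitability, and metabotropic receptors act through G proteins. Beneath the membrane, MAGUK proteins such as PSD-95 bind the receptors, SAPAP proteins link the MAGUKs to Shank proteins, Homer proteins tie Shank to the metabotropic receptors, and CaMKII is the calcium-dependent kinase that potentiates these synapses. In the midbrain, glutamatergic input drives burst firing of dopamine neurons, and the same receptors are used by the neighbouring GABA and glutamate neurons.

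The count totals of the 9 libraries lay between 16422135 and 28403218, and the least and the most abundant of the 40 genes had at least 252 counts (Grik1) and at most 39193 counts (Camk2a) in a library. Counting error alone was at most 6.30% of a count, and for 6 of the 40 genes (Grik1, Grik3, Grik4, Grin2c, Grid1 and Grm8) it was as large as or larger than the SD between control pools. Dot1l itself was at 85.2, 80.2 and 85.1 CPM in the controls, where CPM stands for counts relative to the size of the library, at 84.2, 60.6 and 75.6 CPM in Dot1l(fl/+) and at 82.1, 73.9 and 82.9 CPM in Dot1l(fl/fl). These groups overlapped, and because the counts are per gene they do not measure the loss of the floxed exon alone. The labels call the tissue midbrain dopamine neurons. The summed level of 8 dopamine neuron markers, among them Th and Slc6a3, was 616 to 679 CPM in controls, 478 to 624 in Dot1l(fl/+) and 464 to 495 in Dot1l(fl/fl), with 8 of 8 log2 fold changes below 0 in both floxed genotypes, while 8 oligodendrocyte markers summed to 10386 to 11891 CPM over all libraries. Some Dot1l(fl/+) libraries stood apart. Pmch, a hypothalamic neuropeptide, was at 99.4 and 49.6 CPM in replicates 1 and 3 of Dot1l(fl/+) and between 0.472 and 7.24 CPM in the other libraries. The summed level of 6 immediate early genes was highest in Dot1l(fl/+) replicate 2 (227 CPM) and lowest in Dot1l(fl/+) replicate 3 (88.2 CPM).

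All 40 genes passed the filter on low counts. Because longer transcripts give more fragments, levels were compared between genes only per kilobase of exons, and on that scale they spanned from 1.92 CPM per kb for Grm8, a presynaptic metabotropic receptor, to 158 for Camk2a in the control mean. The length was that of all annotated exons of a gene, not of the forms expressed, so ranks and shares between genes depend on it. Camk2a was followed by Gria1 (94.9 CPM per kb), Camk2b (82.0), Gria2 (52.1), Camk2g (43.4) and Grin1 (40.4), the obligatory NMDA receptor subunit. The leading gene of each other family in controls was Grik5 among kainate receptors (24.6 CPM per kb), Grid1 as the single delta receptor (11.9), Grm5 among metabotropic receptors (25.2), Dlg4 among MAGUKs (31.6), Dlgap3 among SAPAPs (33.7), Shank1 (34.9) and Homer3 (7.11). The same gene came first in all 9 libraries in every family except Homer, where Homer1 was above Homer3 in 2 libraries, control replicate 2 and Dot1l(fl/+) replicate 2. Gria1 held 47.7 to 52.0% of the AMPA subunit level per length in the 9 libraries, Grin1 held 47.7 to 51.9% of the NMDA receptor level, Grik5 held 49.5 to 54.0% of the kainate receptor level and Shank1 held 50.1 to 54.4% of the Shank level. Without division by length Gria2 was above Gria1 in all 9 libraries (810 against 573 CPM in the control mean). The Homer3 level includes exon bases shared with Ddx49, as described below. Neighbours further down did not keep their places. Homer1 and Homer2 ranged over 26.1 to 38.8% and 23.1 to 29.4% of the Homer level, and Grin2b and Grin2c over 9.59 to 13.4% and 10.4 to 13.2% of the NMDA receptor level.

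**Figure D1:**
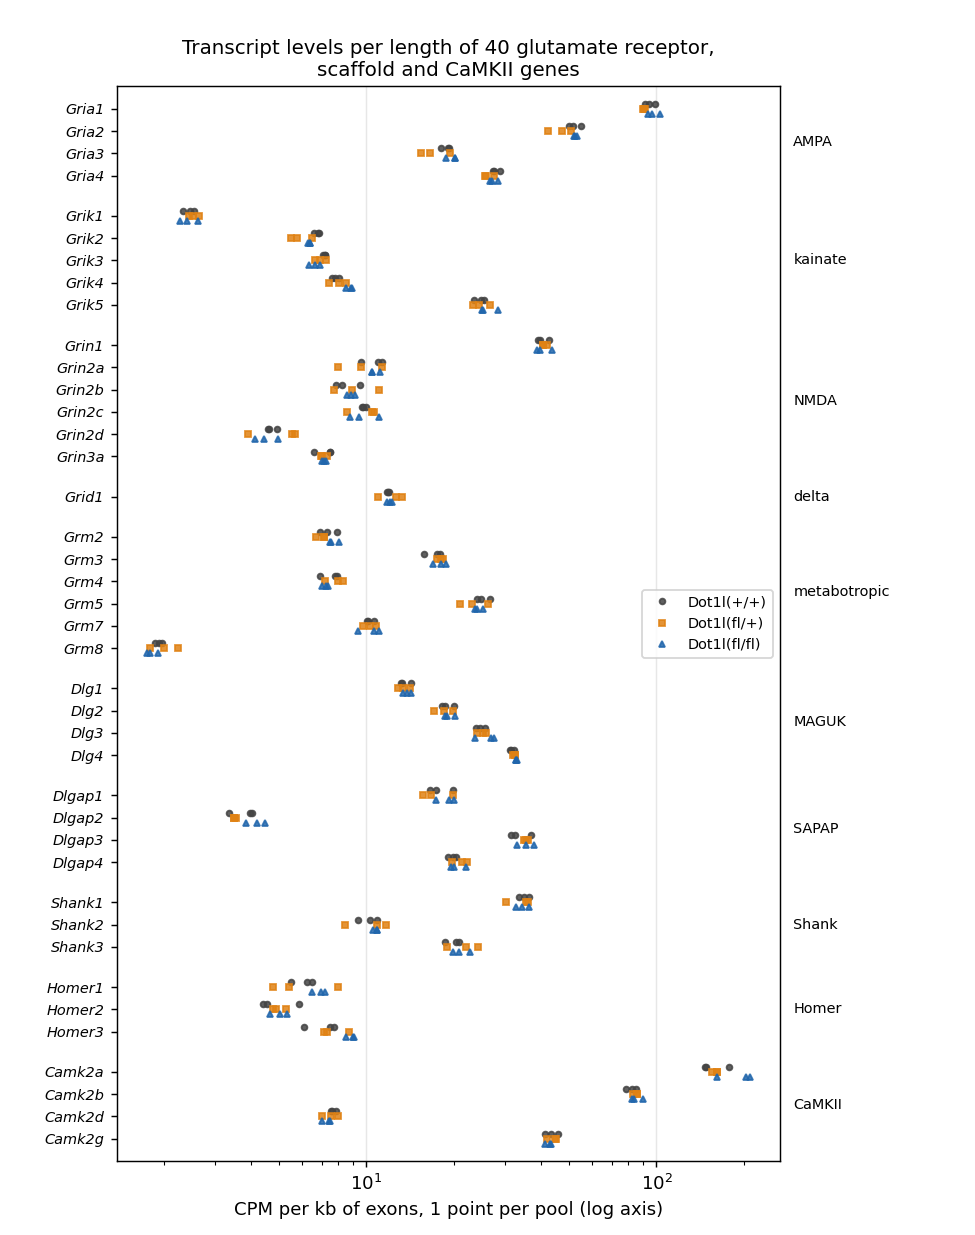
Level per length of each of the 40 genes in each pool, in CPM per kb of exons on a log axis, with genes grouped by family (circles Dot1l(+/+), squares Dot1l(fl/+), triangles Dot1l(fl/fl)). The points of one gene lie close together compared with the distance between genes, which runs from 1.92 CPM per kb for Grm8 to 158 for Camk2a in the control mean.

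None of the 40 genes passed an adjusted p-value of 0.05 in any comparison of the genotypes with edgeR's quasi-likelihood test, fitted on 17671 genes, and neither did any other gene (lowest edgeR adjusted p-values 0.412 for Dot1l(fl/+) and 0.0906 for Dot1l(fl/fl) against controls, and 0.350 for Dot1l(fl/fl) against Dot1l(fl/+)). Differences were small. The edgeR log2 fold change was within 0.2 of 0 for 40 of 40 genes in Dot1l(fl/+) and for 38 of 40 in Dot1l(fl/fl), against 78.8% and 81.7% of all genes tested. At an unadjusted p under 0.05, 2 of the 40 genes were lower in Dot1l(fl/+) (Gria2 and Grik2) and 0 were higher, where 8.39% of all genes had such a p, 4.09% lower and 4.3% higher. In Dot1l(fl/fl) 3 of 40 were higher (Grik4, Homer3 and Camk2a) and 0 were lower, where the share of all genes was 3.93%, with 2.21% higher and 1.72% lower. Without Dot1l(fl/+) replicate 2 the first count became 10, of which 5 were lower (Gria2, Grik2, Grin2a, Grm5 and Homer1) and 5 higher (Grin2d, Grid1, Dlgap4, Shank2 and Shank3). In that fit 1818 of 17891 genes had such a p. Without Dot1l(fl/+) replicate 3 the first count was 1 lower (Grik2) and 1 higher (Grin2b), beside 1011 of 17883 genes. It was 1, Grik2, without control replicate 2 (1204 of 17912 genes) or without control replicate 3 (976 of 17897). The second count became 1 without Dot1l(fl/fl) replicate 1 (581 of 17920). With a correction for exon length and for GC content the count in Dot1l(fl/+) was also 2, but of other genes, Dlgap4 and Shank3, both higher. In that fit 1216 of 17671 genes had such a p. There 28 of the 40 log2 fold changes were positive, and the median over all genes was 0.0075. DESeq2 on all 9 libraries also gave 0 genes of the 40 past the adjusted threshold and 2 and 3 at an unadjusted p under 0.05, and over all genes it called 7 (Dot1l(fl/+)) and 3 (Dot1l(fl/fl)) past the adjusted threshold.

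The median log2 fold change over the 40 genes was 0.01 (Dot1l(fl/+)) and 0.02 (Dot1l(fl/fl)), beside −0.0034 and 0.00090 over all genes. Without single libraries these medians over the 40 genes ranged from 0.0017 (without Dot1l(fl/+) replicate 2) to 0.02 (without control replicate 3) and from 0.02 (without control replicate 2) to 0.05 (without Dot1l(fl/fl) replicate 3). With the length and GC correction they were 0.03 and 0.06, beside 0.0075 and 0.0063 over all genes in that fit. In Dot1l(fl/+) 23 of the 40 had a positive log2 fold change (48.9% of all genes) and in Dot1l(fl/fl) 27 of the 40 did (50.4% of all genes). Of 6 microglia markers, 6 had a positive log2 fold change in Dot1l(fl/fl) and 4 in Dot1l(fl/+), and their summed level was 323 to 336 CPM in controls, 326 to 383 in Dot1l(fl/+) and 357 to 380 in Dot1l(fl/fl), where every pool was above every control. Csf1r among them was at 0.15 in Dot1l(fl/fl) (edgeR unadjusted p 0.031, or up to 0.132 without control replicate 3 or replicate 1 or 2 of Dot1l(fl/fl)). Their part in the values of the 40 genes was not tested. A test for any difference among the 3 genotypes gave an unadjusted p under 0.05 for 7 of the 40 genes, where 6.44% of all genes did, and an adjusted p under 0.05 for 0. The 7 were Gria2, Gria3, Grik2, Grik4, Dlgap2, Homer3 and Camk2a, the same genes that had such a p in one of the pairwise comparisons. This count was not stable to the libraries used. It was 1 without Dot1l(fl/fl) replicate 1 or without Dot1l(fl/fl) replicate 2, 2 without control replicate 2, 3 without control replicate 3 or Dot1l(fl/+) replicate 3, 4 without replicate 1 of Dot1l(fl/+) and 10 without its replicate 2.

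**Figure D2:**
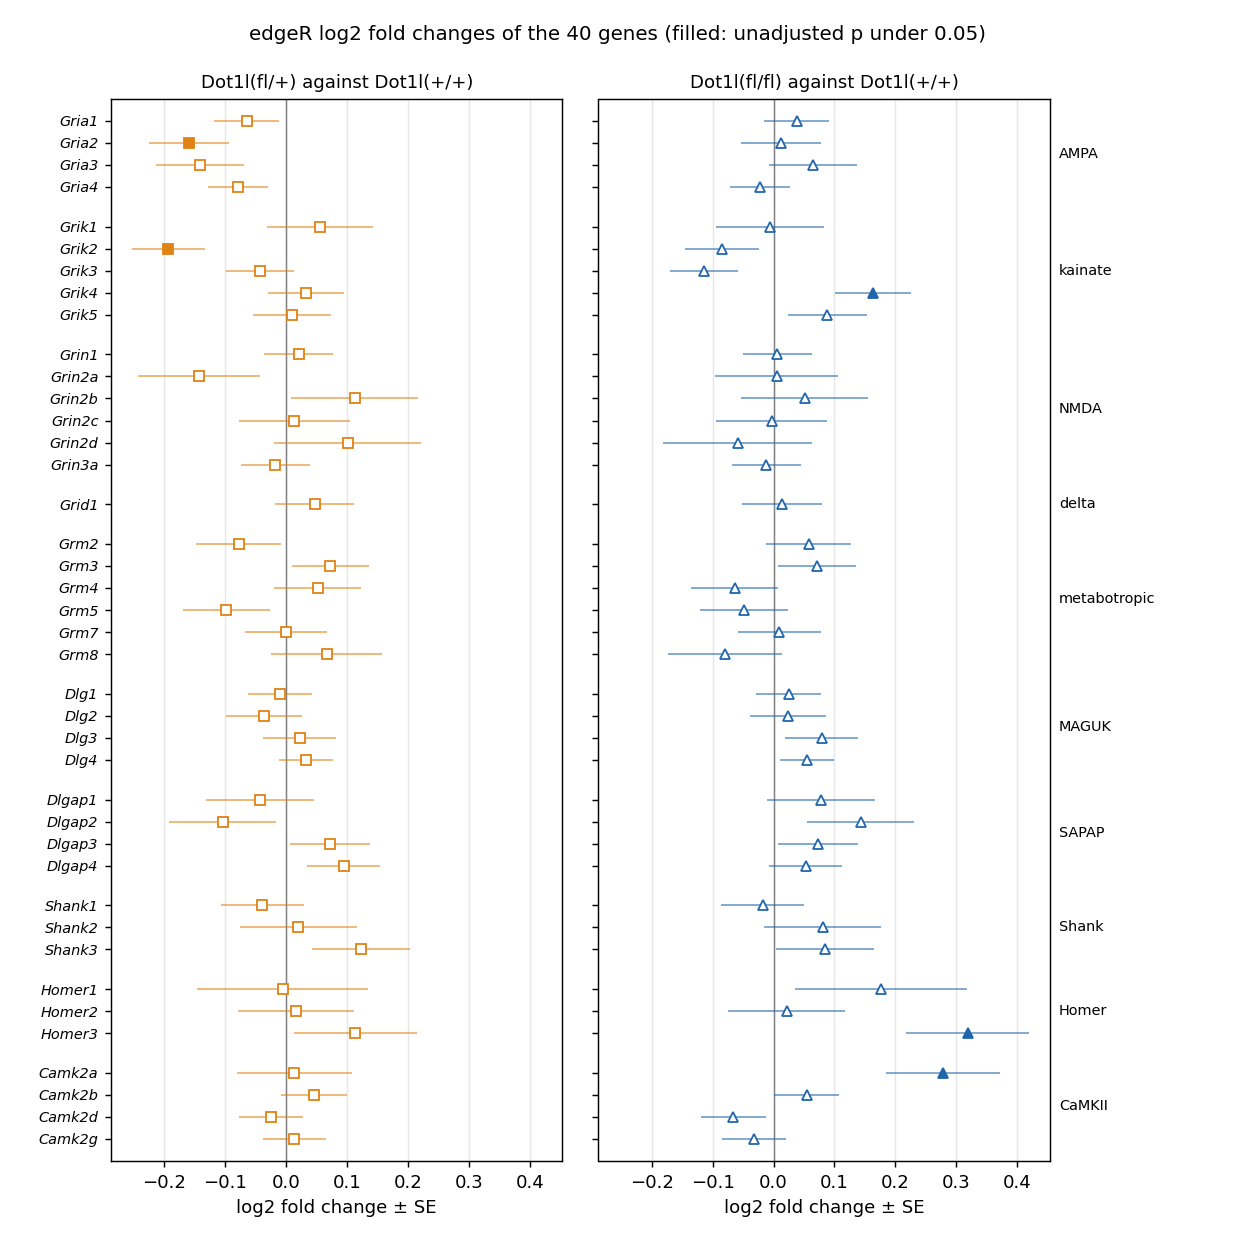
edgeR log2 fold changes of the 40 genes against Dot1l(+/+), with bars of 1 standard error, for Dot1l(fl/+) on the left and Dot1l(fl/fl) on the right (filled symbols, unadjusted p under 0.05). Filled symbols are Gria2 and Grik2 on the left, both below 0, and Grik4, Homer3 and Camk2a on the right, all above 0, and the lowest and highest values in the plot are −0.19 (Grik2) and 0.32 (Homer3).

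Gria2 and Grik2, the genes with an unadjusted p under 0.05 in Dot1l(fl/+), are shown here with the bases just upstream of their transcription starts. These bases lie outside the transcribed genes, while methylation by Dot1l is concentrated in the 5′ part of transcribed genes. The sequences are from RefSeq on GRCm38.p6, run 5′ to 3′ on the gene's strand, and have their CG dinucleotides in capitals. Gria2 lies on the minus strand, and the bases shown are chr3:80802836-80803085. Grik2 also lies on the minus strand, and the bases shown are chr10:49788767-49789004.
Gria2: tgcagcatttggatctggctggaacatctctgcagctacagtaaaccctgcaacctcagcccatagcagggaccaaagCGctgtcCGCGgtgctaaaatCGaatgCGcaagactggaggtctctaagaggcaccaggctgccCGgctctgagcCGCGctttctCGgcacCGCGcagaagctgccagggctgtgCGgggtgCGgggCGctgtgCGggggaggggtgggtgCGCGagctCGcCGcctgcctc
Grik2: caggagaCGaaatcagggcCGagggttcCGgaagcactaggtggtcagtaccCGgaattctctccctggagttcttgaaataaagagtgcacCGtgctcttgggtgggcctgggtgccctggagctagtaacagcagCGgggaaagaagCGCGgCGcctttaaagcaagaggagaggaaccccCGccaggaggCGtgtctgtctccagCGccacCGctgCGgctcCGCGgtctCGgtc
Both stretches were rich in CG, with 19 CG dinucleotides in the 250 bases of Gria2 and 17 in the 238 bases of Grik2. Among the 40 genes, 26 had an entry in the promoter table, with 40 promoters in all. The median of these was 10 CG dinucleotides in the 250 bases before the start, against 6 over the table's 32851 promoters, and 47.5% held the GC box GGGCGG on either strand, against 32.7% of all. The TATA motif TATAAA was found on either strand in 7.5%, against 12.4% of all. These are descriptions of sequence, and nothing at the promoters was measured in these libraries.

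The AMPA receptor subunits were the family with the most uniform pattern in Dot1l(fl/+), with all 4 log2 fold changes below 0 (median −0.11, range −0.16 to −0.065), though only Gria2 among them had an unadjusted p under 0.05. All 4 were below 0 in each of the 18 other fits as well, and the median was −0.049 with a correction for exon length and for GC content. Gria2 (ENSMUSG00000033981, chr3:80681450-80802835, GRCm38), whose edited subunit makes AMPA receptors impermeable to calcium, was at 774, 802 and 855 CPM in the controls, 733, 787 and 655 CPM in Dot1l(fl/+), and 809, 828 and 814 CPM in Dot1l(fl/fl). Dot1l(fl/+) replicates 1 and 3 lay below every control, and replicate 2 lay between the controls, so the groups overlapped. The log2 fold change was −0.16 (SE 0.066) in Dot1l(fl/+), with an edgeR unadjusted p of 0.030 and an edgeR adjusted p of 0.558, and 0.01 (SE 0.066, edgeR unadjusted p 0.857) in Dot1l(fl/fl). Without Dot1l(fl/+) replicate 3 the first value was −0.092 (edgeR unadjusted p 0.167), without control replicate 3 it was −0.12 (p 0.130 in edgeR) and without control replicate 2 it was −0.16 (p 0.059 in edgeR). With a correction for exon length and for GC content it was −0.056 (edgeR unadjusted p 0.379).

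Gria3, on the X chromosome, was at 178, 190 and 189 CPM in controls, 191, 152 and 163 CPM in Dot1l(fl/+) and 200, 198 and 185 CPM in Dot1l(fl/fl). Its Dot1l(fl/+) replicate 1 was above every control while the other pools of that genotype were below every control (log2 fold change −0.14, SE 0.073, edgeR unadjusted p 0.073). Gria1, the subunit with the highest level per length, was at 570, 550 and 600 CPM in controls, 549, 541 and 554 CPM in Dot1l(fl/+) and 581, 620 and 565 CPM in Dot1l(fl/fl), and its log2 fold changes were −0.065 and 0.04, with SE 0.054 in each. Gria4 had log2 fold changes of −0.079 and −0.022. The summed CPM of the 4 subunits was 1693, 1725 and 1817 in controls, 1647, 1642 and 1535 CPM in Dot1l(fl/+) and 1760, 1815 and 1743 CPM in Dot1l(fl/fl). Every Dot1l(fl/+) sum was below every control sum, which was not so for Dot1l(fl/fl). The summed level of 6 general neuron markers was likewise lower in every Dot1l(fl/+) pool than in every control, at 5706 to 5811 CPM in controls, 5363 to 5687 in Dot1l(fl/+) and 5745 to 6111 in Dot1l(fl/fl), with 2 of the 6 above 0 in log2 fold change in Dot1l(fl/+) and 1 lower at an unadjusted p under 0.05 (Nefm at −0.16, edgeR unadjusted p 0.025, or up to 0.115 without control replicate 1, control replicate 2 or Dot1l(fl/+) replicate 2). The 8 oligodendrocyte markers summed to 10386 to 11426 CPM in controls and 10515 to 11891 in Dot1l(fl/+), where 5 of the 8 were above 0. At an unadjusted p under 0.05, 3 of the 8 were higher and 0 lower, Cldn11 at 0.27 (edgeR unadjusted p 0.0039), Cnp at 0.17 (edgeR unadjusted p 0.012) and Mog at 0.16 (edgeR unadjusted p 0.018). Cldn11 kept this without any single library, Cnp lost it without control replicate 2, and Mog lost it without replicate 3 of the controls or of Dot1l(fl/+). The 7 thalamic and hypothalamic markers summed to 306, 109 and 272 CPM in Dot1l(fl/+) replicates 1, 2 and 3. Their sums were 129 to 161 in controls and 135 to 168 in Dot1l(fl/fl). Of these markers 4 passed the filter, and all 4 were above 0 in log2 fold change in Dot1l(fl/+). The part of cell composition in the AMPA subunit values was not tested.

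Among the 5 kainate receptor genes, Grik2 and Grik4 had an unadjusted p under 0.05 in one genotype each, in opposite directions. Grik2 (ENSMUSG00000056073, chr10:49094833-49788766), which encodes a subunit able to form channels on its own, was at 87.0, 90.3 and 91.0 CPM in controls, 85.9, 76.2 and 72.6 CPM in Dot1l(fl/+), and 83.6, 84.8 and 84.8 CPM in Dot1l(fl/fl). All 6 pools with a floxed allele were below all 3 controls, and Grik2 was the single one of the 40 genes for which this held, where 1.22% of all genes did so. The log2 fold change was −0.19 (SE 0.060, edgeR unadjusted p 0.00653, edgeR adjusted p 0.541) in Dot1l(fl/+) and −0.084 (SE 0.060, edgeR unadjusted p 0.185) in Dot1l(fl/fl), and the difference between these genotypes had an edgeR unadjusted p of 0.093. The unadjusted p in Dot1l(fl/+) stayed under 0.05 whichever of the 9 libraries was left out (log2 fold changes −0.27 to −0.14) and was 0.059 in edgeR with the length and GC correction, where the log2 fold change was −0.096.

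Grik4 (ENSMUSG00000032017, chr9:42518135-42944493), a high-affinity subunit that needs a partner such as Grik2 to form a channel, was at 46.4, 45.2 and 47.9 CPM in controls, 47.9, 44.3 and 50.6 CPM in Dot1l(fl/+) and 52.8, 50.5 and 53.2 CPM in Dot1l(fl/fl). The 3 Dot1l(fl/fl) pools were above all controls, and the Dot1l(fl/+) pools overlapped with the controls. The log2 fold change in Dot1l(fl/fl) was 0.16 (SE 0.063, edgeR unadjusted p 0.0215, edgeR adjusted p 0.999), and its edgeR unadjusted p was 0.052 without Dot1l(fl/fl) replicate 1, 0.058 without Dot1l(fl/fl) replicate 3 and 0.067 without control replicate 2, with log2 fold changes of 0.15 to 0.16. Grik5, the other high-affinity subunit, was at 131, 122 and 129 CPM in controls, 127, 120 and 138 CPM in Dot1l(fl/+) and 146, 130 and 129 CPM in Dot1l(fl/fl) (log2 fold change 0.09, SE 0.064, edgeR unadjusted p 0.192, for the last). Grik3 was at 63.6, 64.7 and 64.5 CPM in controls and at 56.8, 59.7 and 61.8 CPM in Dot1l(fl/fl), below every control, with a log2 fold change of −0.11 (edgeR unadjusted p 0.062). The 5 genes together summed to 339 to 349 CPM in controls, 320 to 343 in Dot1l(fl/+) and 341 to 357 in Dot1l(fl/fl), which overlapped.

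**Figure D3:**
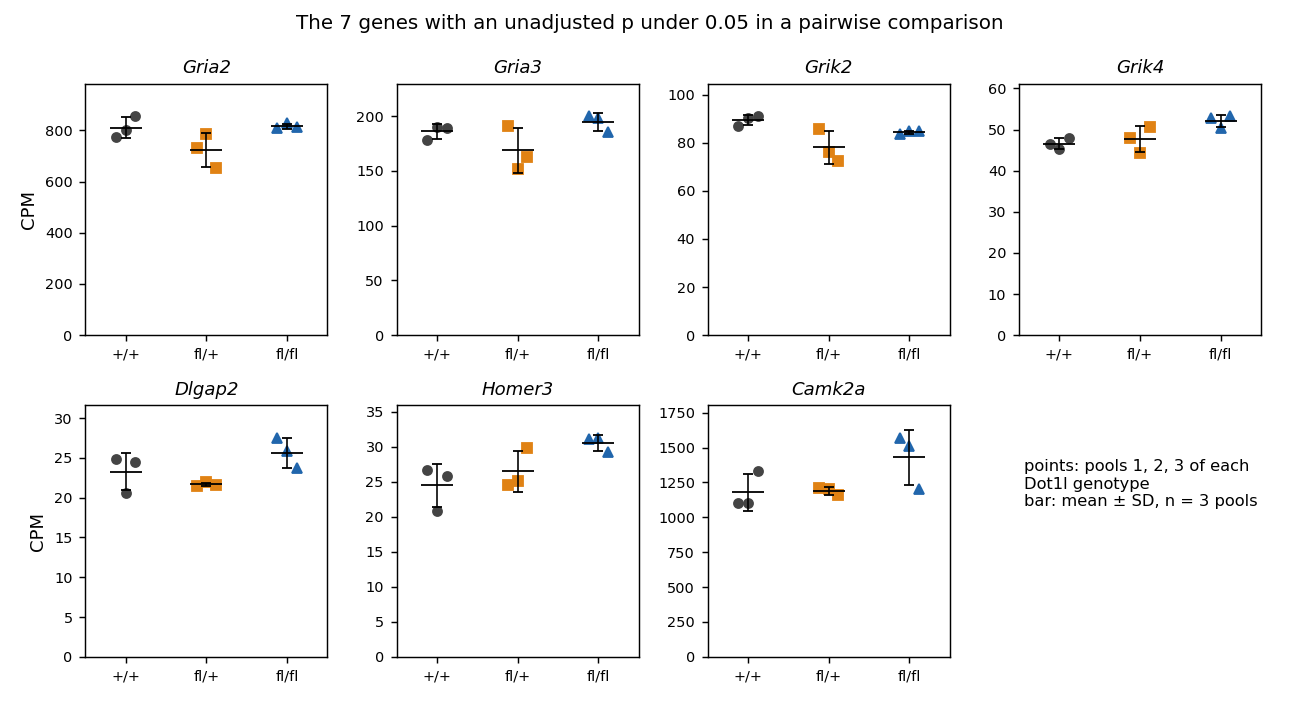
CPM in every pool of the 7 genes with an unadjusted p under 0.05 in a pairwise comparison, with the mean and SD over 3 pools per genotype. All pools of both floxed genotypes lie below the controls for Grik2, the Dot1l(fl/fl) pools lie above the controls for Grik4 and Homer3, and 1 of the 3 Dot1l(fl/fl) pools of Camk2a (1206 CPM) lies among the controls.

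No NMDA receptor gene had an unadjusted p under 0.05 against controls. Grin1, present in every NMDA receptor, was at 413, 384 and 380 CPM in controls, 392, 394 and 406 CPM in Dot1l(fl/+) and 422, 383 and 377 CPM in Dot1l(fl/fl), and its log2 fold changes were 0.02 and 0.0064 with SE 0.057 in each. Grin2a and Grin2b, whose subunits give the receptor faster and slower currents, varied most in Dot1l(fl/+). Grin2a was at 172, 204 and 143 CPM there, against 172, 197 and 203 CPM in controls, and Grin2b at 221, 274 and 192 CPM, against 205, 194 and 237 CPM in controls. Their highest values over all 9 libraries were both in Dot1l(fl/+) replicate 2 and their lowest both in Dot1l(fl/+) replicate 3. That order is the same as for the immediate early genes, whose part in these values was not tested. Grin2c, Grin2d and Grin3a had log2 fold changes of 0.01, 0.10 and −0.018 in Dot1l(fl/+) and of −0.0029, −0.059 and −0.012 in Dot1l(fl/fl).

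The ratio of Grin2a to Grin2b counts, which is unaffected by scaling to the library, was compared between genotypes in each pool and was not corrected for length. It was 0.840, 1.01 and 0.859 in controls, 0.777, 0.743 and 0.742 for Dot1l(fl/+), and 0.882, 0.913 and 0.822 for Dot1l(fl/fl). Every Dot1l(fl/+) pool was below every control, and the Dot1l(fl/fl) pools overlapped with the controls. The mean log2 ratio differed by −0.26 in Dot1l(fl/+), with a two-sided exact permutation p of 0.1, the smallest that 3 against 3 pools allow, and by −0.048 in Dot1l(fl/fl) (exact permutation p = 0.8). The Dot1l(fl/+) difference lay between −0.31 and −0.17 when single pools were left out. Over the 6 ratio comparisons made, its Benjamini-Hochberg adjusted p from the permutation tests was 0.6.

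The other ratios did not separate either floxed genotype from the controls. Gria1 to Gria2 was 0.737, 0.686 and 0.701 in controls, 0.749, 0.688 and 0.846 for Dot1l(fl/+) and 0.719, 0.748 and 0.693 for Dot1l(fl/fl), with exact permutation p-values of 0.4 and 0.6. Camk2a to Camk2b was 1.47, 1.53 and 1.72 in controls, 1.55, 1.59 and 1.48 for Dot1l(fl/+) and 2.06, 1.84 and 1.61 for Dot1l(fl/fl). The Dot1l(fl/fl) replicates 1 and 2 had the 2 highest ratios and replicate 3 lay among the controls, for a log2 difference of 0.22 (exact permutation p = 0.2). Every Dot1l(fl/fl) pool was above every Dot1l(fl/+) pool in this ratio, and that comparison was not tested.

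**Figure D4:**
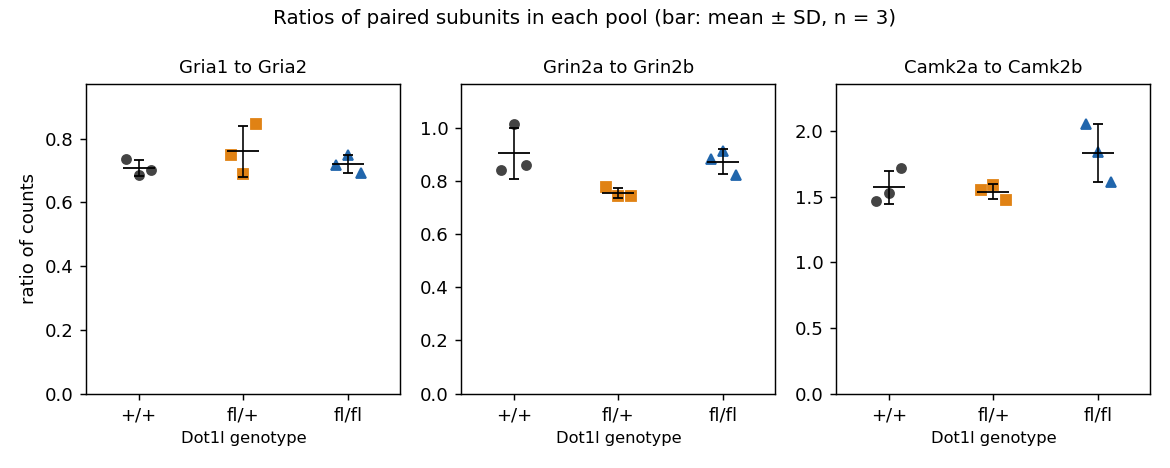
Ratios of counts between paired subunits in each pool, with the mean and SD over 3 pools. For Grin2a to Grin2b the 3 Dot1l(fl/+) pools (0.742 to 0.777) lie below the controls (0.840 to 1.01). For the other ratios both floxed genotypes overlap with the controls. For Camk2a to Camk2b the Dot1l(fl/fl) pools lie above the Dot1l(fl/+) pools.

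Grid1, the delta receptor gene, was at 71.5, 70.9 and 70.4 CPM in controls, 75.5, 65.2 and 79.1 CPM in Dot1l(fl/+), and 71.7, 73.1 and 69.9 CPM in Dot1l(fl/fl), with log2 fold changes of 0.05 and 0.01. The 6 metabotropic receptor genes had log2 fold changes of −0.098 to 0.07 in Dot1l(fl/+) and −0.080 to 0.07 in Dot1l(fl/fl), and all had an unadjusted p above 0.05 in edgeR (smallest 0.195 and 0.280). Grm5, the Gq-coupled receptor that Homer binds, was the leading one per length, at 247, 254 and 273 CPM in controls, 237, 270 and 216 CPM in Dot1l(fl/+) and 243, 247 and 258 CPM in Dot1l(fl/fl). Grm3, which glia use, had log2 fold changes of 0.07 in both genotypes, while the presynaptic receptors Grm2, Grm4 and Grm8 had values of −0.078, 0.05 and 0.07 in Dot1l(fl/+) and values of 0.06, −0.064 and −0.080 in Dot1l(fl/fl). The groups overlapped for each of the 6 genes in both comparisons with controls.

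In the MAGUK family the spread between pools was small, and so were the differences. Dlg4, the gene of PSD-95, was at 417, 413 and 426 CPM in controls, 430, 425 and 429 CPM in Dot1l(fl/+), and 436, 436 and 433 CPM in Dot1l(fl/fl). All Dot1l(fl/fl) pools lay above all controls, as they did for Grik4 and Homer3 and for 5.03% of all genes, but the log2 fold change was 0.06 (SE 0.045, edgeR unadjusted p 0.241). Dlg1, Dlg2 and Dlg3 had log2 fold changes of −0.036 to 0.02 in Dot1l(fl/+) and of 0.02 to 0.08 in Dot1l(fl/fl). The smallest edgeR unadjusted p of the 4 MAGUK genes was 0.480 (Dot1l(fl/+)) and 0.209 (Dot1l(fl/fl)). All 4 were positive in Dot1l(fl/fl), and 3 of the 4 without replicate 1 of that genotype.

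All 4 SAPAP genes had positive log2 fold changes in Dot1l(fl/fl) (0.05 to 0.14, smallest edgeR unadjusted p 0.126), while in Dot1l(fl/+) 2 were positive and 2 negative (−0.10 to 0.09), and 3 of the 4 were positive in Dot1l(fl/fl) without replicate 1 of that genotype. Dlgap3, the leading SAPAP per length, was at 168, 143 and 147 CPM in controls, 160, 158 and 163 CPM in Dot1l(fl/+) and 171, 160 and 149 CPM in Dot1l(fl/fl), and the groups overlapped. Dlgap2 (ENSMUSG00000047495, chr8:14095865-14847680) was at 24.8, 20.6 and 24.5 CPM in controls, 21.5, 21.9 and 21.6 CPM in Dot1l(fl/+), and 27.5, 25.8 and 23.7 CPM in Dot1l(fl/fl). Its values in Dot1l(fl/fl) were all above those in Dot1l(fl/+), and both genotypes overlapped with the controls. Among the Shank genes, Shank1 was at 367, 352 and 383 CPM in controls, 372, 319 and 380 CPM in Dot1l(fl/+) and 381, 361 and 346 CPM in Dot1l(fl/fl), with log2 fold changes of −0.040 and −0.017. Shank2 and Shank3 had log2 fold changes of 0.02 and 0.12 in Dot1l(fl/+) and both of 0.08 in Dot1l(fl/fl), with edgeR unadjusted p-values of 0.153 and above. All 3 Shank genes had their lowest value of the Dot1l(fl/+) group in replicate 2.

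Homer3 had the largest positive log2 fold change of the 40 genes. This scaffold gene (ENSMUSG00000003573, chr8:70282827-70294361) was at 26.7, 20.9 and 25.8 CPM in controls, 24.5, 25.0 and 29.8 CPM in Dot1l(fl/+), and 31.0, 31.2 and 29.2 CPM in Dot1l(fl/fl). The Dot1l(fl/fl) pools were all above the controls, and 1 of the 3 Dot1l(fl/+) pools was. The log2 fold change was 0.32 (SE 0.101, edgeR unadjusted p 0.00733, edgeR adjusted p 0.999) in Dot1l(fl/fl) and 0.11 (SE 0.101, edgeR unadjusted p 0.278) in Dot1l(fl/+). The first value lay between 0.22 and 0.38 over the 9 fits without 1 library, all with an unadjusted p under 0.05. Of the exon bases of Homer3, 25.4% (874 bases) are shared with Ddx49 on the other strand, and whether the counting used strand is not given in the sources used here, so reads of the shared bases may belong to either gene. Ddx49 had a log2 fold change of 0.06 (edgeR unadjusted p 0.558) in Dot1l(fl/fl). Homer1, which also has an activity-induced short form, was at 65.8, 74.9 and 77.7 CPM in controls, 64.9, 95.6 and 57.0 CPM in Dot1l(fl/+) and 77.5, 86.2 and 83.4 CPM in Dot1l(fl/fl) (log2 fold changes −0.0058 and 0.18, SE 0.141 in each). The counts do not separate its forms, and its 95.6 CPM was in the same library as the highest immediate early gene sum. Homer2 had log2 fold changes of 0.02 in both genotypes.

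Camk2a (ENSMUSG00000024617, chr18:60925618-60988152), the α subunit of CaMKII and the most abundant of the 40 genes, was at 1104, 1100 and 1331 CPM in controls, 1209, 1204 and 1157 CPM in Dot1l(fl/+), and 1567, 1514 and 1206 CPM in Dot1l(fl/fl). Replicates 1 and 2 of Dot1l(fl/fl) were above every other library, and replicate 3 lay within the controls. The log2 fold change in Dot1l(fl/fl) was 0.28 (SE 0.094, edgeR unadjusted p 0.0108, edgeR adjusted p 0.999), and in Dot1l(fl/+) it was 0.01 (SE 0.094, edgeR unadjusted p 0.887). Without Dot1l(fl/fl) replicate 1 it was 0.21 (edgeR unadjusted p 0.0538), and DESeq2 on these 2 genotypes alone gave an unadjusted p of 0.0582. With no filter on low counts the edgeR adjusted p was 0.003, in a fit that called 118 genes in all. The kinase is most abundant in forebrain excitatory neurons, and markers of such neurons were detected in every pool. The summed level of 8 cortical and hippocampal markers, none of them at 0, was 670, 612 and 785 CPM in controls, 664, 872 and 725 CPM in Dot1l(fl/+) and 868, 869 and 689 CPM in Dot1l(fl/fl). Of these 8 markers, 5 had a positive log2 fold change in Dot1l(fl/fl), 2 of them with an unadjusted p under 0.05 (Neurod6 at 0.42, edgeR unadjusted p 0.027, and Nrgn at 0.27, edgeR unadjusted p 0.036). Neurod6 lost this without replicate 1 or 2 of the controls or of Dot1l(fl/fl) (log2 fold change down to 0.27, edgeR unadjusted p up to 0.145), and Nrgn without control replicate 1, control replicate 2 or Dot1l(fl/fl) replicate 2 (down to 0.18, edgeR unadjusted p up to 0.159). Within Dot1l(fl/fl) the sum was lowest in replicate 3, as Camk2a was. Dot1l(fl/+) replicate 2 had the highest marker sum, with Camk2a inside the range of the controls. The part of forebrain tissue in the Camk2a values was not tested.

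**Figure D5:**
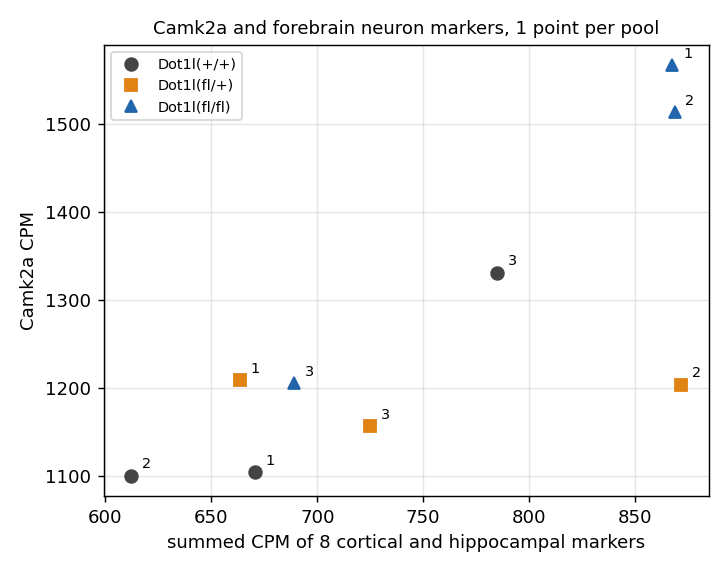
Camk2a in CPM against the summed CPM of 8 cortical and hippocampal neuron markers in each of the 9 pools, with replicate numbers beside the points. Dot1l(fl/fl) replicates 1 and 2 are high on both axes (1567 and 1514 CPM of Camk2a at marker sums of 868 and 869), replicate 3 is near the controls, and Dot1l(fl/+) replicate 2 has a marker sum of 872 with 1204 CPM of Camk2a.

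The other CaMKII subunits differed less. Camk2b, the actin-binding β subunit, had log2 fold changes of 0.05 in both genotypes, Camk2g had 0.01 and −0.032, and Camk2d had −0.025 and −0.066. Camk2d was at 171, 176 and 169 CPM in controls and 168, 158 and 167 CPM in Dot1l(fl/fl), below every control, as were Grik2 and Grik3 among the 40 genes and 5.25% of all genes. Per length, Camk2a held 54.1% of the CaMKII level in the control mean, 54.0% (Dot1l(fl/+)) and 58.5% (Dot1l(fl/fl)).

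The comparison of Dot1l(fl/fl) with Dot1l(fl/+) used the same pools as the comparisons with controls, so it is not a separate result. At an unadjusted p under 0.05, 4 of the 40 genes were higher in Dot1l(fl/fl) (Gria2, Gria3, Dlgap2 and Camk2a) and 0 lower, where 6.48% of all genes had such a p (3.6% higher and 2.87% lower), and 0 of 40 passed the adjusted threshold. The edgeR log2 fold changes were 0.17 (SE 0.066, p 0.0215) for Gria2, 0.21 (SE 0.073, p 0.0138) for Gria3, 0.25 (SE 0.088, p 0.0141) for Dlgap2 and 0.26 (SE 0.094, p 0.0143) for Camk2a, with an edgeR adjusted p of 0.726 for each. Against controls, Gria2 and Gria3 were at 0.01 and 0.06 in Dot1l(fl/fl) and at −0.16 and −0.14 in Dot1l(fl/+). Their values here thus repeat the low Dot1l(fl/+) pools described above. The Dot1l(fl/fl) pools lay above all Dot1l(fl/+) pools for Gria1, Gria2, Grm2, Dlg4 and Dlgap2, 5 of the 40 genes against 5.98% of all genes. A positive log2 fold change was found for 25 of the 40 and for 50.5% of all genes. The 4 AMPA subunits all had positive log2 fold changes, with a median of 0.14, or 3 of 4 with a median of 0.10 under the length and GC correction. Of the 8 oligodendrocyte markers, 4 were lower and 0 higher in this comparison at an unadjusted p under 0.05, and their part was not tested.
These calls rested on single libraries. The count of 4 higher and 0 lower became 7 higher and 2 lower (Grin2d and Grm4) without replicate 2 of Dot1l(fl/+), 5 higher and 1 lower (Grm8) without its replicate 3, and 2 higher and 0 lower without Dot1l(fl/fl) replicate 1 or Dot1l(fl/fl) replicate 2. In that order, 1752 of 17891, 876 of 17883, 962 of 17920 and 993 of 17903 genes had an unadjusted p under 0.05. Gria2 was at 0.10 (edgeR unadjusted p 0.121) without Dot1l(fl/+) replicate 3 and at 0.16 (edgeR unadjusted p 0.057) without Dot1l(fl/fl) replicate 2, and Gria3 was at 0.14 (edgeR unadjusted p 0.056) without Dot1l(fl/+) replicate 2. With all libraries and the length and GC correction, Gria2 was at 0.12 (edgeR unadjusted p 0.081). Without Dot1l(fl/fl) replicate 1, Dlgap2 was at 0.19 (edgeR unadjusted p 0.070) and Camk2a at 0.19 (edgeR unadjusted p 0.075), and without Dot1l(fl/fl) replicate 2 Camk2a was at 0.22 (edgeR unadjusted p 0.058).

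Beyond the 40 genes, 61 other genes of glutamatergic synapses were read from the same fit, and 60 of them passed the filter (Grm6, a retinal receptor, did not). In Dot1l(fl/+) 1 of the 60 was higher at an unadjusted p under 0.05 and 1 was lower, where 4.3% and 4.09% of all genes were. The count of higher genes was 2 or 3 without any single library other than control replicate 1 and Dot1l(fl/+) replicate 3. The count of lower genes was 5 without Dot1l(fl/+) replicate 2, 4 without Dot1l(fl/+) replicate 1, 2 without control replicate 2 and 0 without control replicate 3, and DESeq2 on the 2 genotypes alone gave 5 higher and 0 lower. Camk2n2, which encodes an inhibitor of CaMKII, was at 61.8, 72.2 and 60.1 CPM in controls and 73.4, 74.3 and 80.8 CPM in Dot1l(fl/+), above every control (log2 fold change 0.24, edgeR unadjusted p 0.010). Akap5, the anchor that holds protein kinase A at the postsynapse, was at 40.3, 36.8 and 45.6 CPM in controls and 37.2, 36.5 and 33.8 CPM in Dot1l(fl/+) (log2 fold change −0.19, edgeR unadjusted p 0.028), and these groups overlapped. Without Dot1l(fl/+) replicate 3 the log2 fold change of Akap5 was −0.10, and without control replicate 3 that of Camk2n2 was 0.19, each with an unadjusted p above 0.05. Akap5 also had a p above 0.05 without control replicate 3.

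In Dot1l(fl/fl) 4 of the 60 genes were higher and 1 was lower at an unadjusted p under 0.05, where 2.21% and 1.72% of all genes were. Among the higher ones were Nptxr, the neuronal pentraxin receptor that clusters AMPA receptors, with a log2 fold change of 0.23 (edgeR unadjusted p 0.020), Neto1, an auxiliary subunit of kainate receptors, with 0.19 (edgeR unadjusted p 0.039), and the calmodulin-binding Nrgn, which is also one of the forebrain markers above. The lower one was Gsg1l, a suppressor of AMPA receptor currents, with −0.21 (edgeR unadjusted p 0.010). Gsg1l was at 32.4, 36.9 and 36.1 CPM in controls and 30.6, 31.8 and 28.6 CPM in Dot1l(fl/fl), below every control. These calls depended on single libraries. Neto1 lost its call without replicate 1 or 2 of the controls or of Dot1l(fl/fl) (log2 fold change down to 0.11, edgeR unadjusted p up to 0.204), Nptxr without replicate 2 of either group (down to 0.16, edgeR unadjusted p up to 0.101) and Gsg1l without control replicate 2 (edgeR unadjusted p 0.052). The count of 4 was 9 without control replicate 3 and 8 without Dot1l(fl/fl) replicate 3, while it was 2 without control replicate 1, control replicate 2 or Dot1l(fl/fl) replicate 1 and 1 without Dot1l(fl/fl) replicate 2. The count of lower genes was 0 without control replicate 2 and 2 without Dot1l(fl/+) replicate 2 or Dot1l(fl/fl) replicate 1. In Dot1l(fl/fl) against Dot1l(fl/+), 7 of the 60 were higher and 0 lower, where 3.6% and 2.87% of all genes were. These counts became 12 and 3 without replicate 2 of Dot1l(fl/+), 3 and 1 without replicate 1 of Dot1l(fl/fl) and 6 and 1 without its replicate 2. By list, 14 of 18 AMPA receptor auxiliary genes, 14 of 19 postsynaptic enzymes and regulators, 6 of 8 genes of glutamate transport and supply and 5 of 10 postsynaptic adhesion genes had a positive log2 fold change in Dot1l(fl/fl), as 50.4% of all genes did, with medians of 0.04, 0.06, 0.06 and 0.0024. Of the 2 kainate receptor auxiliary genes 1 was positive, as was 1 of the 3 other receptor genes. In Dot1l(fl/+), where 48.9% of all genes were positive, the lists had 9, 6, 3, 4, 0 and 0 positive values in that order, with medians of 0.0022, −0.034, −0.021 and −0.035 for the first 4.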

How the data were processed

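The authors made directional RNA libraries from total RNA, sequenced them on an Illumina NextSeq and deposited raw counts per Ensembl gene on GRCm38.p4. The submitters' processing notes name bcl2fastq 2.17, Trimmomatic 0.30 and DESeq2 1.10.1, and the aligner, counter, annotation release and strand setting are not given in the sources used here. The deposited tables of the authors' own comparisons, which hold fold changes and p-values, were not used. Symbols, exon lengths and GC content were taken from GENCODE M21. Counts were tested in R 4.3.3 with edgeR 4.0.16 in a model of the 9 libraries by genotype (filterByExpr, 17671 genes, TMM factors 0.988 to 1.01, quasi-likelihood test, Benjamini-Hochberg adjustment over all genes, common biological coefficient of variation 8.81%). Levels are CPM with TMM-scaled library sizes. Ratios were tested with exact permutation tests over pools. Scripts ran on Python 3.11.15 and were tested on simulated data.

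The 40 genes, the other glutamatergic genes and the marker lists were chosen with earlier results of these data known. Values in every library are given for genes with an unadjusted p under 0.05 in a pairwise comparison, for genes with all pools of both floxed genotypes on one side of the controls, and for the gene of each family with the highest level per length. Of the other lists, at most 5 genes each with an unadjusted p under 0.05 against controls are named, and 1 such gene is not reported here. Gria4, Grik3, Grin2a, Grin2b, Homer1, Shank3, Dlg4 and Camk2d were described further after their values were seen. The alternatives were DESeq2 1.42.0, other scaling, filters and groups of libraries, a correction for length and GC content (an offset from splines of 4 degrees of freedom), the replicate number as a block, and each library left out. The edgeR p-values set a difference between genotypes against the spread between pools, with information shared over genes. The spread between single mice was not measured. The series text speaks of sorted neurons at E15.75, while every library is labelled as dissected midbrain at 180 days, and the labels were followed.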

Additional observations from a re-analysis of the deposited data

How the results depend on the processing

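Of 1024 values recomputed under other settings, 924 kept their direction and their side of the threshold of an unadjusted p under 0.05 (counts, a similar size). No alternative except edgeR without a filter brought a gene of the 40 past an adjusted p of 0.05. That fit called 1 gene, Camk2a, in Dot1l(fl/fl) against controls (edgeR adjusted p 0.003) and 1 in Dot1l(fl/fl) against Dot1l(fl/+), and at an unadjusted p under 0.05 it counted 5 genes for Dot1l(fl/+) and 7 for Dot1l(fl/fl) against Dot1l(fl/+). Of all 28316 genes in that fit, 2155 and 1795 had such a p. At the unadjusted threshold, Dot1l(fl/fl) against controls counted 5 genes with edgeR on these 2 genotypes alone and 5 with the length and GC correction. The same fits counted 965 of 17311 and 701 of 17671 genes in all. Over all genes, 0 passed an adjusted p of 0.05 with edgeR in each comparison, against 251, 118 and 164 without a filter (Dot1l(fl/+), Dot1l(fl/fl), and Dot1l(fl/fl) against Dot1l(fl/+)), 7, 3 and 11 with DESeq2 on all libraries, 45, 8 and 8 with DESeq2 on 2 genotypes and 1, 4 and 0 with edgeR on 2 genotypes. The cause of these moves was not tested. When single libraries were left out, the counts ranged from 1 to 10 for Dot1l(fl/+), from 1 to 4 for Dot1l(fl/fl), from 2 to 9 for Dot1l(fl/fl) against Dot1l(fl/+) and from 1 to 10 for any difference. The log2 ratio differences ranged from −0.0039 to 0.0528 for Gria1 to Gria2 in Dot1l(fl/fl), from −0.099 to 0.04 for Grin2a to Grin2b in Dot1l(fl/fl) and from −0.074 to 0.04 for Camk2a to Camk2b in Dot1l(fl/+), and so changed sign. The single values past 0 were −0.0039 without Dot1l(fl/fl) replicate 2, 0.0373 without control replicate 2, and 0.0021 and 0.0383 without Dot1l(fl/+) replicate 3 and control replicate 3. A further 31 values, all of single genes with an unadjusted p above 0.05, changed sign. Without single libraries the log2 fold changes in Dot1l(fl/+) ranged from −0.0140 to 0.0816 for Grik4, −0.0460 to 0.0557 for Grik5, −0.0004 to 0.0590 for Grin1, −0.0120 to 0.1244 for Grid1, −0.0869 to 0.0353 for Shank1 and −0.0311 to 0.1124 for Camk2a. In Dot1l(fl/fl) they ranged from −0.0197 to 0.0522 for Gria2, −0.0438 to 0.0455 for Grin1 and −0.0526 to 0.0179 for Shank1. In Dot1l(fl/fl) against Dot1l(fl/+) they ranged from −0.0688 to 0.0150 for Grin1, −0.1101 to 0.0261 for Grid1, −0.0231 to 0.1390 for Grm5, −0.0546 to 0.0463 for Dlgap3 and −0.0523 to 0.0698 for Shank1. With the length and GC correction, without and with the replicate block, Shank1 in Dot1l(fl/fl) was at 0.05 and 0.0507, and in Dot1l(fl/fl) against Dot1l(fl/+) Grin1 was at 0.0176 and 0.0168 and Dlgap3 at 0.0652 and 0.0642. For 6 genes the counting error reached the SD between control pools, an SD that rests on 3 pools and is itself uncertain. With 3 pools against 3 a permutation p cannot go below 0.1.

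The study's methods describe the pools as paired by nest, but the labels do not say that a replicate number marks a nest, so the numbers were not taken as pairing the pools and the permutation tests are unpaired. The correlation of deviations from the group means was −0.016 to 0.508 over the 9 pairs of libraries with the same number, 6 of them over 0.1, and −0.469 to 0.205 over the 18 other pairs, and not every library correlated best with its own number. With the replicate number as a block, the counts at an unadjusted p under 0.05 were 2, 3, 6 and 7 in Dot1l(fl/+), Dot1l(fl/fl), Dot1l(fl/fl) against Dot1l(fl/+) and any difference, with 0 at an adjusted p under 0.05, where 0, 3 and 3 of all genes passed in the pairwise comparisons. The 6 include Grik4 and Homer3 beside Gria2, Gria3, Dlgap2 and Camk2a. With the block and the length and GC correction the counts were 1, 6, 8 and 5. In the pairwise comparisons 1651, 782 and 1259 of all 17671 genes had such a p with the block. With the block and the correction 1328, 754 and 1113 did.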
